A study of Homo sapiens with 9 samples.

Results

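The genes described are 47 genes of the lysosome and of autophagy, 21 that encode lysosomal proteins, 24 that encode autophagy factors, and the transcription factors TFEB and TFE3. They were chosen by symbol from the 18143 genes measured, and all 47 were among the 11429 genes with a mean FPKM over 1. FPKM is a level of RNA scaled for the length of the transcript and the number of fragments in the library. RNA was sequenced from A549, a human lung adenocarcinoma cell line, 48 h after transfection. The cells received scramble siRNA, which served as the control, or 1 of 2 siRNAs against REV1, called SiREV1#1 and SiREV1#2. Each group had 3 replicates, giving 9 libraries, and both siRNAs were compared with the same 3 scramble libraries. REV1 is a polymerase of translesion synthesis, the bypass of damaged bases during DNA replication. The comparisons asked how the transcriptome differed after silencing of REV1. All libraries came from this single established line after transient transfection, and bulk RNA cannot tell a change in every cell from a change in some of them.

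Lysosomes are acidic organelles in which hydrolases break down proteins, sugars and lipids delivered by endocytosis and autophagy. In autophagy a kinase complex around ULK1 starts the process, a lipid kinase complex marks the site, and conjugation enzymes attach proteins of the ATG8 family to the growing membrane. Cargo receptors bind both the cargo and ATG8 proteins, and the closed autophagosome then fuses with a lysosome. TFEB and TFE3 are related transcription factors known to promote the expression of many lysosomal and autophagy genes through short promoter motifs.

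REV1 itself was lower in every silenced library. Its FPKM was 7.23, 7.90 and 8.44 in scramble replicates 1, 2 and 3, 2.6, 2.92 and 3.36 after SiREV1#1, and 3.62, 3.36 and 3.18 after SiREV1#2. On the log2(FPKM + 0.1) scale used throughout, REV1 fell by 1.38 ± 0.14 (SE) after SiREV1#1 and by 1.19 ± 0.14 after SiREV1#2, with adjusted p = 0.000777 and 0.00271. The exact two-sided permutation p was 0.1 for each siRNA, the smallest that 3 against 3 libraries can give. Exons of REV1 overlap EIF5B on the opposite strand, and no source used here says that the counting used strand. The epithelial keratins KRT8 and KRT18 were abundant in all libraries (1372 to 5602 and 2491 to 5216 FPKM), CDH1 was between 6.32 and 43.8, and KRT19 and EPCAM stayed at or below 1.34 and 2.38. Of the other 7 markers found for leukocytes, endothelium and fibroblasts, CD14 reached 5.89 and COL1A1 1.57, and the rest were at or under 0.75. Total estimated counts were between 13059082, in SiREV1#1 replicate 1, and 20166451.

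Replicate 1 stood apart from replicates 2 and 3 in all 3 groups, so each siRNA was compared with scramble within the same replicate number, and the number was a term of the model. When each library was set against the mean of its group, the 9 pairs of libraries with a common number correlated at 0.732 to 0.925 across genes. The differences between replicates 2 and 3 were not shared in this way, since their correlations between groups were 0.13, -0.16 and -0.12. The labels do not say what a number stands for, so the p-values measure the spread between these libraries.

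Promoter sequences are shown because the motif that TFEB and TFE3 are known to prefer, the E-box CACGTG, lies in several of these promoters and TFEB itself changed. The sequences are from RefSeq (GRCh38.p14), 250 bases before to 50 after each annotated start, and 40 of the 47 genes matched with 50 promoters. LAMP2, CTSB, HEXA, PSAP, ASAH1, UVRAG and RB1CC1 did not match. The motif reads the same on both strands and was found in 8 of the 50 promoters and 8 of the 40 genes, against 7.26% of all 35116 promoters and 8.77% of all 27305 genes. Lysosomal proteins held 6 of these genes (of 16 matched) and autophagy factors 2 (of 22 matched). The longer word TCACGTG, which contains the E-box and was searched on both strands, occurred in the same 8 genes and in 3.71% of all promoters. LAMP1 had the most copies, 6. Its promoter from 250 bases before to 20 after the start (chr13:113296989-113297258, plus strand) reads as follows, with each E-box in capitals.
LAMP1: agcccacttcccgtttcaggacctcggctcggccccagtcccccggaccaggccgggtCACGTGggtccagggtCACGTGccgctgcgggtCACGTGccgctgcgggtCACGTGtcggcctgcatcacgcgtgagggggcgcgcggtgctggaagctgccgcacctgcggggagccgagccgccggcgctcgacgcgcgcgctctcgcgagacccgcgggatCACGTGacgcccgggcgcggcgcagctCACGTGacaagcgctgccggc
The other 7 genes are shown by 30 bases around 1 copy each, at chr17:80101538-80101567 (GAA, plus strand), chr20:45891298-45891327 (CTSA, plus), chr19:7522598-7522627 (MCOLN1, plus), chr11:1763957-1763986 (CTSD, minus), chr6:31862930-31862959 (NEU1, minus), chr3:112561963-112561992 (ATG3, minus) and chr14:55411834-55411863 (ATG14, minus).
GAA: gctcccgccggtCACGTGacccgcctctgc
CTSA: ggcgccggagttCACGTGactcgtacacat
MCOLN1: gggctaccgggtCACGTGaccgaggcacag
CTSD: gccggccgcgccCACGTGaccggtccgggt
NEU1: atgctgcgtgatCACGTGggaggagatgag
ATG3: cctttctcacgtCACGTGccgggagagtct
ATG14: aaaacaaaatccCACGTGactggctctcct

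In scramble cells the 47 genes covered a wide range of levels. PSAP, the precursor of the saposins that help hydrolases degrade sphingolipids, was highest at 296.8 ± 26.4 FPKM (mean ± SD, n = 3). The ATG8 protein gene GABARAP followed at 247.6 ± 32.6, then the aspartic protease gene CTSD at 165.7 ± 54.2 and the ATG8 protein gene MAP1LC3B at 113 ± 65.3. The lowest were ATG14, a subunit of the autophagy lipid kinase, at 4.58 ± 0.47 and TFEB at 4.61 ± 0.99, which is near the middle of all 18143 genes (percentiles 51.9 and 52.0). TFE3 was far more abundant, at 63.5 ± 24.0 FPKM. Where an SD is large beside its mean, as for MAP1LC3B and CTSD, replicate 1 lay apart from the other two.

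After SiREV1#1, 4 of the 6 lysosomal peptidase genes and 2 glycosidase genes changed. CTSA, GAA, TPP1 and CTSD rose and CTSB and NEU1 fell, so 6 of the 21 lysosomal genes passed an adjusted p under 0.05 (limma). Of all genes tested, 19.8% passed (6.2% higher and 13.6% lower). The median log2 difference of the 21 lysosomal genes was 0.16, and that of all genes was -0.08. In 10 of the 21 the silenced library was higher than scramble at every replicate number, and in 5 it was lower, where the shares of all genes were 19.6% and 35.5%. All SiREV1#1 values lay above all scramble values for 5 lysosomal genes and below them for 2, and above them for 1 autophagy factor and below for 3, as 6.35% and 13.8% of all genes did. The heat map of paired differences shows these differences for every gene and number.

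**Figure D1:**
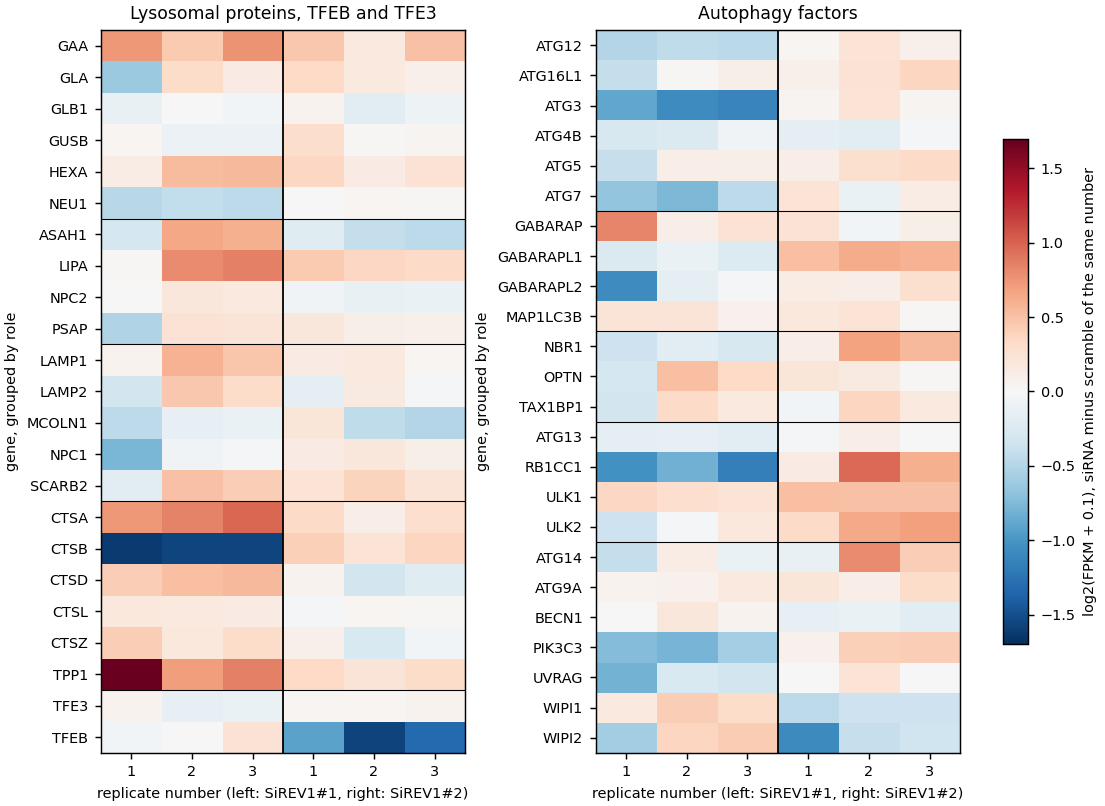
Differences between each silenced library and the scramble library of the same replicate number, as log2(FPKM + 0.1), for all 47 genes, with horizontal lines between functional groups. CTSB is between -1.63 and -1.56 in all 3 pairs of SiREV1#1 and between 0.24 and 0.40 in those of SiREV1#2, and TFEB is between -1.57 and -0.90 in those of SiREV1#2.

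CTSB, a cysteine protease of the lysosome and one of the most abundant cathepsins here, gave the largest difference of the 47 genes. Its FPKM was 77.8, 71.8 and 68.4 in the scramble libraries, 25.1, 24.4 and 23.1 after SiREV1#1, and 103, 84.5 and 87.9 after SiREV1#2. The SiREV1#1 values lay far below all scramble values, and the SiREV1#2 values lay above all of them. CTSB fell by 1.58 ± 0.10 (SE) on the log2 scale after SiREV1#1 (adjusted p = 0.000128), a call kept in all 20 other fits. After SiREV1#2 the difference was 0.33 ± 0.10 (adjusted p = 0.066).

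TPP1, a serine peptidase that removes tripeptides from protein ends, had an FPKM of 28.5, 28.8 and 26.2 in scramble and of 91.8, 46.9 and 47.5 after SiREV1#1. All SiREV1#1 values were higher than all scramble values, and replicate 1 was far above the others. TPP1 rose by 1.08 ± 0.19 (adjusted p = 0.00729), with a paired difference of 1.68 in replicate 1 and of 0.70 and 0.85 in replicates 2 and 3. Of the 50-base words of TPP1 transcripts, 9.39% occur also in the overlapping gene AC091564.7. How the authors divided reads of shared sequence is not stated in the sources used here. CTSA, which cleaves proteins and also protects the sialidase NEU1 and beta-galactosidase, had an FPKM of 42.4, 27.8 and 26.4 in scramble and of 71.0, 50.03 and 51.9 after SiREV1#1. The groups did not overlap. CTSA rose by 0.85 ± 0.11 (adjusted p = 0.00186), and its paired differences were close to each other, at 0.74, 0.85 and 0.97. On the opposite strand, exons of CTSA overlap NEURL2 and PLTP, and exons of TPP1 overlap AC091564.6. Whether the counting used strand is not stated in the sources used here.

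CTSD rose less, by 0.50 ± 0.12 (adjusted p = 0.0244). It had an FPKM of 228, 137 and 132 in scramble and of 306, 195 and 193 after SiREV1#1. These groups overlapped because replicate 1 was high in both, and every pair differed the same way (0.42, 0.52 and 0.55). Of the words of CTSD, 36.5% are shared with the overlapping gene AC068580.4. The other cysteine proteases did not pass, with 0.30 ± 0.11 for CTSZ (adjusted p = 0.0789) and 0.16 ± 0.09 for CTSL (adjusted p = 0.27).

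Among the glycosidases, GAA, which degrades glycogen, had an FPKM of 24.8, 20.5 and 17.6 in scramble and of 41.2, 28.0 and 30.1 after SiREV1#1. The groups did not overlap, and GAA rose by 0.65 ± 0.11 (adjusted p = 0.006). NEU1, which removes sialic acid from glycans, had an FPKM of 23.01, 41.5 and 40.8 in scramble and of 16.5, 31.0 and 29.8 after SiREV1#1. In each pair the silenced library was lower, but scramble replicate 1 lay below SiREV1#1 replicates 2 and 3, so the groups overlapped. NEU1 fell by 0.45 ± 0.09 (adjusted p = 0.0132). GLA, GLB1, GUSB and HEXA, which degrade glycolipids and glycosaminoglycans, did not pass (-0.06 to 0.41).

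No gene for a lysosomal membrane protein or for lysosomal lipid handling passed after SiREV1#1 (limma), while at an unadjusted p under 0.05 LAMP1 and LIPA did. LAMP1, the abundant membrane glycoprotein that lines the lysosome and whose promoter is printed above, had an FPKM of 58.1, 53.1 and 56.2 in scramble and of 60.8, 80.2 and 78.3 after SiREV1#1. The values did not overlap, yet replicate 1 hardly differed (0.06) while replicates 2 and 3 did (0.59 and 0.48). The fitted LAMP1 difference was 0.38 ± 0.13 (adjusted p = 0.0822). LIPA, the acid lipase that hydrolyses cholesteryl esters, showed the same split, with an FPKM of 41.0, 19.7 and 18.8 in scramble and 41.5, 34.4 and 34.3 after SiREV1#1. Its fitted difference was 0.56 ± 0.19 (adjusted p = 0.0763). On counts, DESeq2 called LAMP1 and LIPA (adjusted p = 0.0219 and 0.00895) and edgeR did not (0.0739 and 0.0538). The cholesterol exporter NPC1 was at -0.29 ± 0.17 and its partner NPC2 at 0.13 ± 0.10, and the calcium channel MCOLN1 was at -0.23 ± 0.20.

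Without the replicate number in the model, 1 of the 6 lysosomal calls remained, that of CTSB, where 1.49% of all genes passed. Leaving out scramble replicate 3 left 3 calls, and leaving out SiREV1#1 replicate 1, the shallowest library, gave 15 (13 higher and 2 lower). Leaving out scramble replicate 2 or SiREV1#1 replicate 2 or 3 left 4 calls each. The shares of all genes that passed in these left-out fits are not given here, so these counts cannot be set against them. The CTSD call was lost without scramble replicate 1, 2 or 3, SiREV1#1 replicate 2 or 3, or SiREV1#2 replicate 3 (adjusted p up to 0.121). That of NEU1 was lost without replicate 2 or 3 of scramble or of SiREV1#1 (up to 0.0932), and that of GAA without scramble replicate 3 (0.0576). On counts with the replicate number, NEU1 did not pass (adjusted p = 0.0757 with edgeR and 0.053 with DESeq2). With every library centred on its own median, the median of all genes after SiREV1#1 moved up by 0.12, and the calls became 8 higher and 2 lower among lysosomal genes and 2 higher and 5 lower among autophagy factors, where the higher share of all calls went from 31.3% to 52.0%.

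**Figure D2:**
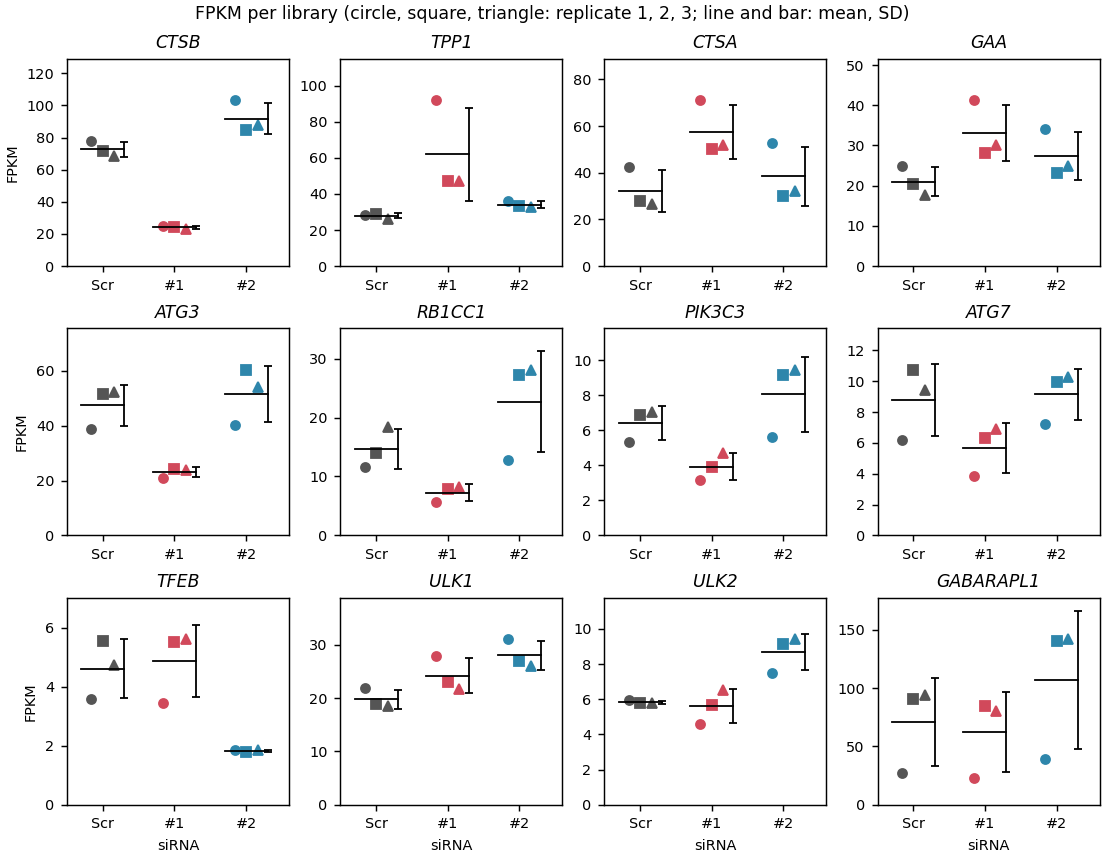
FPKM of 12 genes in each library, by siRNA (Scr, scramble; #1, SiREV1#1; #2, SiREV1#2), with replicates 1, 2 and 3 as circle, square and triangle and the group mean and SD as line and bar. CTSB and ATG3 are low in the 3 SiREV1#1 libraries, TFEB is low in the 3 SiREV1#2 libraries, and GABARAPL1 is low in replicate 1 of every group.

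After SiREV1#2, 0 of the 21 lysosomal genes passed (limma), where 11.4% of all genes did (3.76% higher and 7.61% lower). At an unadjusted p under 0.05 there were 2, CTSB and GAA, both higher, and edgeR and DESeq2 with the replicate number called 0. The median log2 difference of the lysosomal genes was 0.12, against -0.00 for all genes. The silenced library was higher in all 3 pairs for 13 genes and lower for 2, where 25.9% and 29.7% of all genes were. In 4 genes, CTSB, HEXA, TPP1 and SCARB2, all SiREV1#2 values lay above all scramble values, as 6.61% of all genes did, and none lay below (9.52% of all genes). Of the autophagy factors 4 lay above and 1 below. For GAA the FPKM was 34.2, 23.1 and 25.0 after SiREV1#2, and the difference was 0.38 ± 0.11 (adjusted p = 0.0631). For HEXA, a subunit of the hexosaminidases that degrade gangliosides, it was 56.8, 59.6 and 61.8, against 44.6, 54.0 and 51.9 in scramble. Leaving out SiREV1#1 replicate 1, which is not part of this comparison but shares the model's spread and its replicate term, gave 8 calls (7 higher and 1 lower). Leaving out SiREV1#2 replicate 1 gave 1. No share of all genes is given for these left-out fits, for the count fits or for the unadjusted p.

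TFEB was the transcription factor that changed, and only with SiREV1#2 did it pass. Its FPKM was 3.57, 5.54 and 4.73 in scramble, 3.45, 5.51 and 5.61 after SiREV1#1, and 1.86, 1.80 and 1.84 after SiREV1#2. The SiREV1#2 libraries lay close together and below all others. TFEB fell by 1.26 ± 0.17 (adjusted p = 0.005) after SiREV1#2, with paired differences of -0.90, -1.57 and -1.32. After SiREV1#1 the difference was 0.06 ± 0.17 (adjusted p = 0.836), and the direct comparison of the siRNAs gave a level higher with SiREV1#1 by 1.32 ± 0.17 (adjusted p = 0.00115). Without the replicate number the adjusted p of the SiREV1#2 call was 0.082, and without scramble replicate 2 it was 0.0518. TFE3 did not pass, with differences of -0.07 ± 0.10 after SiREV1#1, which was 0.0527 with libraries centred on their median, and of 0.04 ± 0.10 after SiREV1#2. The 8 genes with an E-box in the promoters printed above had SiREV1#2 differences of 0.11 (LAMP1), 0.38 (GAA), 0.24 (CTSA), -0.24 (MCOLN1), -0.15 (CTSD), 0.02 (NEU1), 0.11 (ATG3) and 0.37 (ATG14). None of the 8 passed (limma; GAA alone had an unadjusted p under 0.05), where 11.4% of all genes did. With replicates 2 and 3 only, GAA, CTSA, MCOLN1, CTSD and ATG14 passed, where 53.1% of all genes did. After SiREV1#1, GAA, CTSA and CTSD were called higher and NEU1 and ATG3 lower, where 19.8% of all genes passed. A link between TFEB and these genes was not tested.

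After SiREV1#1, 5 of the 24 autophagy factors passed (20.8%), close to the share of all genes (19.8%, 13.6% lower). All 5 fell. They were ATG3, ATG7 and ATG12 of the ATG8 conjugation machinery, RB1CC1 of the initiation kinase complex, and PIK3C3, the lipid kinase. The median of the 24 was -0.11, against -0.08 for all genes. In 11 of them the silenced library was lower in all 3 pairs, and in 5 it was higher. The shares of all genes were 35.5% and 19.6%.

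ATG3, the enzyme that transfers ATG8 proteins onto lipid, had an FPKM of 38.9, 51.4 and 52.3 in scramble, 21.1, 24.4 and 23.9 after SiREV1#1, and 40.3, 60.4 and 54.0 after SiREV1#2. All SiREV1#1 libraries lay below all scramble libraries, while SiREV1#2 overlapped with scramble. ATG3 fell by 1.03 ± 0.11 after SiREV1#1 (adjusted p = 0.000972), with paired differences of -0.88, -1.07 and -1.12. RB1CC1, the scaffold also known as FIP200, had an FPKM of 11.6, 14.0 and 18.4 in scramble, 5.62, 7.90 and 8.21 after SiREV1#1, and 12.8, 27.3 and 28.1 after SiREV1#2. It fell below all scramble values after SiREV1#1, by 1.00 ± 0.16 (adjusted p = 0.00533). After SiREV1#2 the difference was 0.57 ± 0.16 (adjusted p = 0.0621), small in replicate 1 (0.14) and larger in replicates 2 and 3 (0.96 and 0.61).

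PIK3C3, which makes phosphatidylinositol 3-phosphate, had an FPKM of 5.31, 6.86 and 7.07 in scramble and of 3.15, 3.93 and 4.71 after SiREV1#1. The groups did not overlap, and PIK3C3 fell by 0.70 ± 0.13 (adjusted p = 0.0076). ATG7, the E1-like enzyme that activates both ubiquitin-like systems of autophagy, had an FPKM of 6.18, 10.7 and 9.43 in scramble and of 3.86, 6.31 and 6.91 after SiREV1#1. ATG7 fell by 0.62 ± 0.12 (adjusted p = 0.0108) and ATG12, which is conjugated to ATG5, by 0.47 ± 0.10 (adjusted p = 0.0155). For both, scramble replicate 1 lay within the SiREV1#1 range, so the groups overlapped while each pair differed the same way. The exons of ATG3, ATG7 and ATG12 overlap SLC35A5, VGLL4 and AP3S1 on the opposite strand, and no source used here says that the counting used strand.

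The other autophagy factors did not pass after SiREV1#1. GABARAP had the highest difference, 0.40 ± 0.15, and UVRAG, a regulator of the lipid kinase, the lowest of them, -0.46 ± 0.14 (adjusted p = 0.0522). The GABARAP pairs differed by 0.84, 0.11 and 0.25 in replicates 1, 2 and 3. Of its 50-base words, 28.2% occur also in other genes, among them the overlapping gene AC120057.2. The ATG5, ATG16L1 and ATG4B differences were between -0.19 and -0.06, and those of the cargo receptors NBR1, OPTN and TAX1BP1 were -0.27, 0.19 and 0.06. Without the replicate number, 0 of the 24 passed, with 4 at an unadjusted p under 0.05. Leaving out SiREV1#1 replicate 2 left 2 calls, scramble replicate 2 or 3 left 3, and SiREV1#1 replicate 1 gave 9. How many of all genes passed in these left-out fits is not given here. The ATG7 call was lost without scramble replicate 2 or 3 or SiREV1#1 replicate 2 (adjusted p up to 0.0682), that of ATG12 without any 1 scramble library or SiREV1#1 replicate 2 or 3 (up to 0.1003) and in the count-based fits with the replicate number, and that of PIK3C3 without SiREV1#1 replicate 2 (0.0502).

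**Figure D3:**
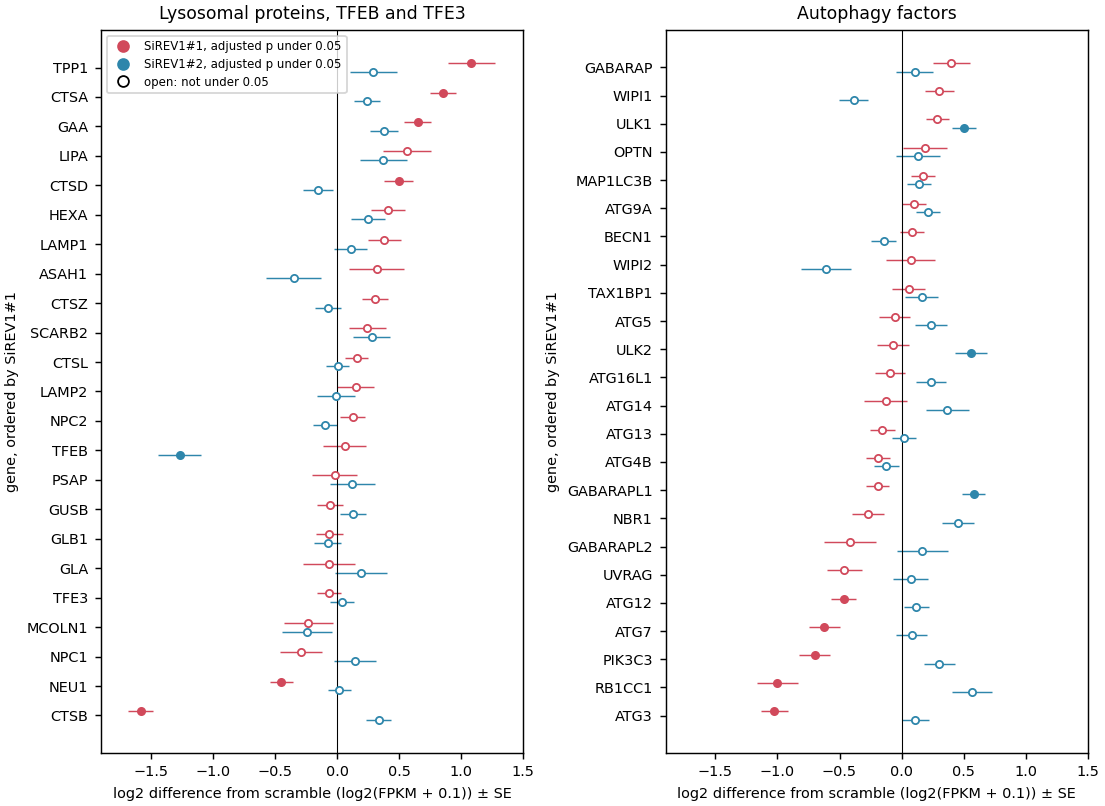
Fitted log2 differences from scramble with standard errors for SiREV1#1 (red) and SiREV1#2 (blue), genes ordered by SiREV1#1, filled where the adjusted p was under 0.05. Filled red points lie on both sides of 0 among lysosomal genes and below 0 among autophagy factors, and filled blue points are GABARAPL1, ULK1 and ULK2 above 0 and TFEB below 0.

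After SiREV1#2, 3 of the 24 autophagy factors passed (12.5%), close to the share of all genes (11.4%, 3.76% higher). All 3 rose, namely GABARAPL1, ULK1 and ULK2. The median of the 24 was 0.15, against -0.00 for all genes, and 14 were higher in all 3 pairs while 4 were lower. Of all genes, 25.9% were higher in all 3 pairs and 29.7% lower. GABARAPL1, an ATG8 protein, had an FPKM of 27.1, 91.0 and 94.2 in scramble, 22.9, 84.4 and 80.0 after SiREV1#1, and 38.8, 141 and 142 after SiREV1#2. Replicate 1 was low in every group, and within each number SiREV1#2 was the highest. GABARAPL1 rose by 0.58 ± 0.09 (adjusted p = 0.00974), with paired differences of 0.51, 0.63 and 0.59.

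ULK1, the initiating kinase, had an FPKM of 21.8, 19.0 and 18.4 in scramble, 27.8, 23.1 and 21.7 after SiREV1#1, and 31.1, 26.9 and 26.1 after SiREV1#2. The SiREV1#2 libraries lay above all scramble libraries, and within each replicate number the SiREV1#1 library was in between, although over all replicates SiREV1#1 overlapped with both other groups. ULK1 rose by 0.50 ± 0.09 after SiREV1#2 (adjusted p = 0.0163), and after SiREV1#1 its difference was 0.29 ± 0.09 (adjusted p = 0.0681). The 2 siRNAs did not differ for ULK1 past the threshold (-0.21 ± 0.09, adjusted p = 0.114). ULK2, a related kinase, had an FPKM of 5.93, 5.80 and 5.76 in scramble and of 7.49, 9.12 and 9.42 after SiREV1#2, which did not overlap, and it rose by 0.56 ± 0.13 (adjusted p = 0.033).

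The remaining autophagy factors did not pass after SiREV1#2. NBR1, a receptor for ubiquitinated cargo, had an FPKM of 20.7, 55.4 and 60.5 in scramble and of 22.4, 89.0 and 88.6 after SiREV1#2, a fitted difference of 0.45 ± 0.13 (adjusted p = 0.0595). The lipid readers WIPI1 and WIPI2 were lower in all 3 pairs, with fitted differences of -0.39 ± 0.12 and -0.61 ± 0.20 (adjusted p = 0.0697 and 0.0902). MAP1LC3B, the ATG8 protein most used as an autophagy marker, was at 0.14 ± 0.10. Without the replicate number, and with edgeR on counts with it, 0 of the 24 passed, with 2 and 7 at an unadjusted p under 0.05. Leaving out replicate 2 or 3 of scramble or of SiREV1#2 also left 0, and leaving out SiREV1#1 replicate 2 or 3 left 2. Leaving out replicate 1 of SiREV1#2 or SiREV1#1 gave 5 and 10 calls. For these left-out fits too, no share of all genes is given. The adjusted p without a library reached 0.0937 for GABARAPL1, 0.13 for ULK1 and 0.211 for ULK2.

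The siRNAs were also compared with each other, in the same model, to whose spread and replicate term the scramble libraries contribute. Of the 21 lysosomal genes 7 passed, 5 higher with SiREV1#1 (CTSA, CTSD, CTSZ, TPP1 and ASAH1) and 2 lower (CTSB and NEU1), where 36.2% of all genes passed. The ASAH1 call was kept in 6 of 20 other fits, that of CTSZ in 10 and that of CTSB in all 20. With edgeR or DESeq2 and the replicate number, ASAH1 and CTSZ did not pass, nor did NEU1 with edgeR. Of the 24 autophagy factors 11 passed, WIPI1 and WIPI2 higher with SiREV1#1 and GABARAPL1, ULK2, ATG3, ATG7, ATG12, NBR1, UVRAG, RB1CC1 and PIK3C3 lower. CTSB gave a difference of -1.92 ± 0.10 (adjusted p = 5.34e-05) and RB1CC1 one of -1.57 ± 0.16 (adjusted p = 0.000469). For PIK3C3 it was -1.001 ± 0.13 and for ATG3 -1.14 ± 0.11. The medians were 0.16 for lysosomal genes, -0.31 for autophagy factors and -0.07 for all genes. REV1 itself differed by -0.19 ± 0.14 between the siRNAs (adjusted p = 0.301). None of the 47 genes passed against scramble after both siRNAs, so each call against scramble was made with a single siRNA. The share of all genes that passed after both is not given here. Without the replicate number 1 lysosomal gene and 2 autophagy factors passed, where 5.3% of all genes did, and with libraries centred on their median the lysosomal calls were 8 higher and 2 lower and the autophagy calls 3 higher and 9 lower. Leaving out SiREV1#1 replicate 1 gave 12 lysosomal calls, and leaving out SiREV1#2 replicate 2 or 3 gave 4, with no share of all genes given beside them.

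Replicate 1 was then compared with replicates 2 and 3, as 3 with 6 libraries over all groups. In this comparison 11 of the 21 lysosomal genes (8 higher in replicate 1 and 3 lower) and 18 of the 24 autophagy factors (3 higher and 15 lower) passed, where 65.6% of all genes passed (27.1% higher and 38.6% lower). The median log2 difference was 0.34 for lysosomal genes, -0.56 for autophagy factors and -0.12 for all genes. The 40 other autophagy factors counted further on had a median of -0.15, close to that of all genes, and the 34 other lysosomal hydrolases one of 0.39. With libraries centred on their median, that of all genes moved up by 0.19, and 12 lysosomal genes were higher and 2 lower, and 5 autophagy factors higher and 13 lower. All 3 replicate 1 values lay outside the range of the other 6 libraries for 8 lysosomal genes (6 higher) and for 12 autophagy factors (2 higher), where 46.2% of all genes did.

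MAP1LC3B showed the split most plainly. Its FPKM in replicate 1 was 37.8, 44.1 and 42.9 in scramble, SiREV1#1 and SiREV1#2, and in replicates 2 and 3 it was between 144 and 169. Its log2 difference was -1.94 ± 0.08 (adjusted p = 1.65e-06). GABARAPL1 (-1.82 ± 0.08), NBR1 (-1.69 ± 0.11), OPTN (-1.33 ± 0.16) and UVRAG (-1.26 ± 0.12) were low in replicate 1 as well, as was TFE3 (-1.05 ± 0.09). All 3 cargo receptors and all 6 conjugation genes had a negative difference, and WIPI1 went the other way (1.66 ± 0.10), with an FPKM of 10.2, 11.4 and 7.40 in replicate 1 and of 2.24 to 3.98 elsewhere. Among lysosomal genes LIPA (0.85 ± 0.17), CTSD (0.83 ± 0.10), CTSA (0.63 ± 0.09) and CTSL (0.57 ± 0.08) were higher in replicate 1, and NPC1 (-1.50 ± 0.15), NEU1 (-0.85 ± 0.08) and HEXA (-0.34 ± 0.12) were lower. The HEXA, ULK1, ATG14, ATG3 and PIK3C3 calls were lost under some settings. Leaving out SiREV1#1 replicate 1 gave 17 lysosomal calls, and the share of all genes in that fit is not given. What distinguishes replicate 1 was not tested.

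**Figure D4:**
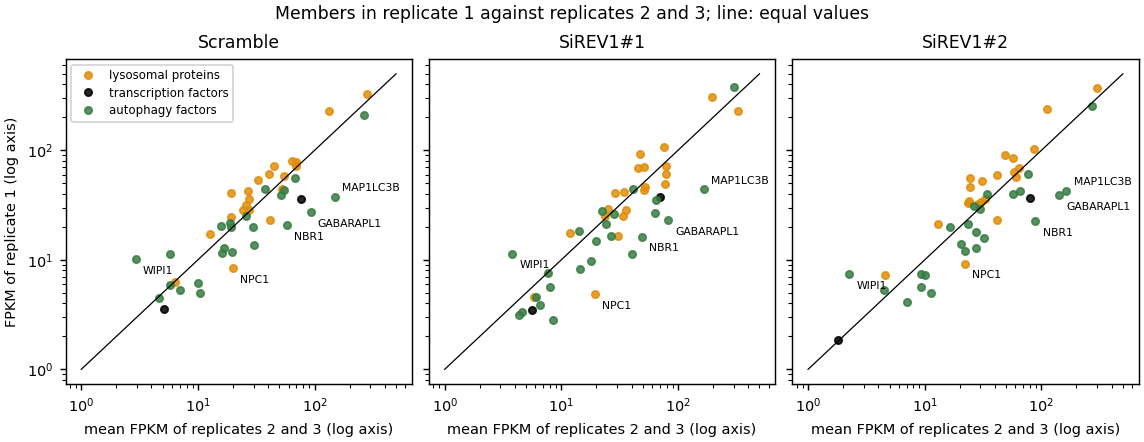
FPKM of each gene in replicate 1 against its mean in replicates 2 and 3, on log axes, in scramble, SiREV1#1 and SiREV1#2, with equal values on the line. In all 3 groups MAP1LC3B, GABARAPL1, NBR1 and NPC1 lie below the line and WIPI1 above it.

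The siRNA differences in replicate 1 were also set against those in replicates 2 and 3. With 1 library a group in replicate 1, the spread of this contrast comes only from replicates 2 and 3, so its p-values assume that replicate 1 varied as little, which these libraries cannot show. The difference of SiREV1#1 from scramble in replicate 1, less that in replicates 2 and 3, passed for 10 of the 21 lysosomal genes and 9 of the 24 autophagy factors, where 46.3% of all genes passed (14.8% higher and 31.5% lower). All but TPP1 and GABARAP were lower in replicate 1. The median of this contrast was -0.18 for lysosomal genes and -0.12 for autophagy factors, against -0.17 for all genes. With libraries centred on their median these medians were -0.04, 0.01 and -0.04. This contrast rests on SiREV1#1 replicate 1, the library with the lowest depth, and on scramble replicate 1. Among those that passed were LAMP1, LAMP2, NPC1 and SCARB2 of the membrane proteins and ASAH1, LIPA and PSAP of lipid handling. ASAH1, the acid ceramidase, had an FPKM of 53.2, 32.0 and 34.1 in scramble and of 43.0, 50.5 and 51.8 after SiREV1#1, so silencing went with a lower value in replicate 1 (-0.30) and higher ones in replicates 2 and 3 (0.66 and 0.60). The difference in replicate 1 less that in replicates 2 and 3 was -0.93. GABARAPL2, an ATG8 protein, had an FPKM of 56.2, 70.8 and 65.1 in scramble and of 26.7, 63.3 and 64.4 after SiREV1#1, and the same quantity was -0.98. For SiREV1#2, 2 lysosomal genes and 4 autophagy factors passed, where 21.3% of all genes did (9.24% higher and 12% lower). They were CTSD and MCOLN1, higher in replicate 1, and ATG14, WIPI2, NBR1 and RB1CC1, lower. Leaving out scramble replicate 3 gave 4 lysosomal calls, and leaving out SiREV1#2 replicate 2 gave 1 lysosomal and 2 autophagy calls.

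**Figure D5:**
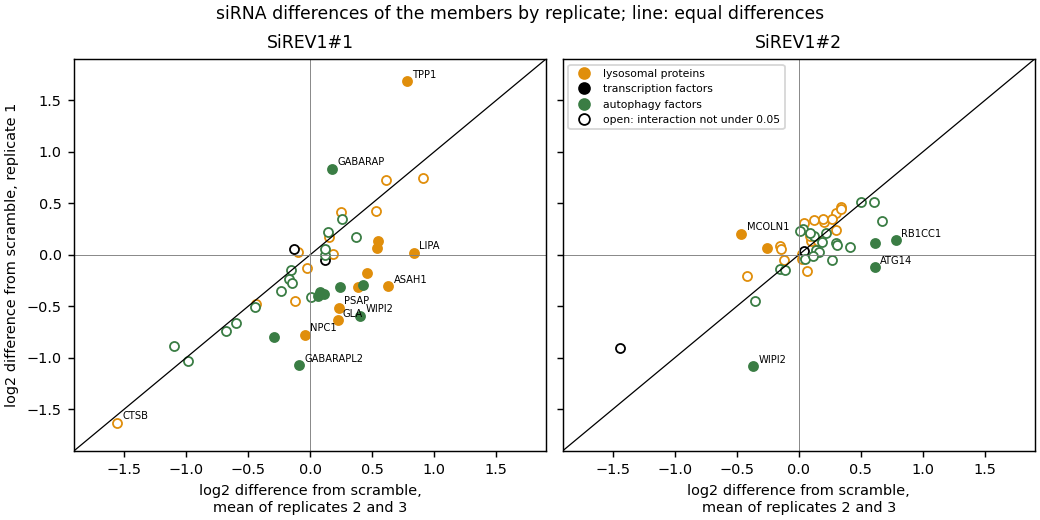
Difference of each siRNA from scramble in replicate 1 (vertical) against the mean of the differences in replicates 2 and 3 (horizontal), on the log2(FPKM + 0.1) scale, filled where the interaction had an adjusted p under 0.05. For SiREV1#1 most filled points lie below the line of equal differences, TPP1 and GABARAP lie above it, and CTSB is close to the line.

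With replicates 2 and 3 only, more genes passed, with a spread taken from replicates 2 and 3 alone. After SiREV1#1, 17 lysosomal genes (15 higher and 2 lower) and 14 autophagy factors (6 higher and 8 lower) passed, where 54.5% of all genes did. All 6 and 5 calls made with the 3 replicates were among them, with the same sign. The same libraries had entered those calls, so this is not separate support for them. LAMP1 was at 0.54, LIPA at 0.83, HEXA at 0.55 and SCARB2 at 0.46 in these replicates, while CTSB stayed at -1.56. After SiREV1#2, 10 lysosomal genes (7 higher and 3 lower) and 14 autophagy factors (12 higher and 2 lower) passed, where 53.1% of all genes did, and the 3 calls made with all replicates were among them. Here ASAH1 (-0.42), MCOLN1 (-0.46) and CTSD (-0.26) were the lysosomal genes that fell, and RB1CC1 (0.78), NBR1 (0.62) and ATG14 (0.61) were among the autophagy factors that rose. Between the siRNAs 17 lysosomal genes and 20 autophagy factors passed in these replicates, where 68.9% of all genes did.

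Further genes of the same organelle and pathway were counted from 6 longer lists, to be read against the 19.8% of all genes that passed after SiREV1#1 and the 11.4% after SiREV1#2. Of 34 other lysosomal hydrolases tested, 7 passed after SiREV1#1 (5 higher and 2 lower) and 4 after SiREV1#2 (all higher), 20.6% and 11.8%, close to the shares of all genes. MANBA, the beta-mannosidase, fell by 0.55 ± 0.13 and SMPD1, the acid sphingomyelinase, rose by 0.54 ± 0.13 after SiREV1#1, and the acid phosphatase ACP2 rose by 0.77 ± 0.16 and PPT2 by 0.62 ± 0.13 after SiREV1#2. Of 20 other membrane and transport proteins, 10 passed after SiREV1#1 (5 higher and 5 lower) and 5 after SiREV1#2 (3 higher and 2 lower), 50% and 25%. OSTM1, the partner of a lysosomal chloride exchanger, had an FPKM of 12.4, 18.4 and 21.01 in scramble, 5.08, 7.80 and 7.50 after SiREV1#1, and 17.3, 27.7 and 26.5 after SiREV1#2. It fell by 1.32 ± 0.10 after SiREV1#1 and rose by 0.47 ± 0.10 after SiREV1#2. SLC17A5, the sialic acid exporter, fell by 1.20 ± 0.12 after SiREV1#1, and the potassium channel gene TMEM175 fell by 1.08 ± 0.22 after SiREV1#2.

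The other 4 lists held shares near or below those of all genes, at 11.1% and 11.1% for V-ATPase subunits, 18.8% and 12.5% for sorting, 11.5% and 3.85% for nutrient sensing and 15% and 12.5% for other autophagy factors. Of 18 V-ATPase subunits tested, which acidify the lysosome, 2 fell after SiREV1#1 (ATP6V1G1 by 0.84 ± 0.10 and ATP6V1D by 0.62 ± 0.17), and after SiREV1#2 ATP6V1G1 rose by 0.38 ± 0.10 while ATP6V0A2 fell by 0.72 ± 0.14. Of 16 genes for the sorting of lysosomal proteins, 3 passed after SiREV1#1 (1 higher and 2 lower) and 2 after SiREV1#2 (both lower). SUMF1, which activates sulfatases, fell by 1.35 ± 0.19 and GNPTG, a subunit of the enzyme that tags hydrolases with mannose 6-phosphate, rose by 0.50 ± 0.11 after SiREV1#1, and HPS1 and AP3D1 fell by 1.16 ± 0.12 and 0.63 ± 0.10 after SiREV1#2. Of 26 genes of nutrient sensing at the lysosome, 3 passed after SiREV1#1 (2 higher, 1 lower) and 1 after SiREV1#2. LAMTOR1 rose by 0.53 ± 0.09 and RRAGD fell by 0.87 ± 0.17 after SiREV1#1, and RPTOR, a subunit of mTORC1, fell by 0.55 ± 0.12 after SiREV1#2. Of 40 other autophagy factors, 6 passed after SiREV1#1 (3 higher and 3 lower) and 5 after SiREV1#2 (1 higher and 4 lower). PLEKHM1 and VPS39, which act in fusion with the lysosome, fell by 1.01 ± 0.12 and 0.44 ± 0.11 after SiREV1#1, and MAP1LC3A rose by 0.87 ± 0.12 and ATG4D fell by 0.99 ± 0.14 after SiREV1#2.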

How the data were processed

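Messenger RNA was captured with oligo(dT) and sequenced on BGISEQ-500. The authors deposited FPKM values and estimated read counts for each library, and StringTie 1.3.3b and hg38 are named in the submitters' processing notes. The aligner and the use of strand are not given in the sources used here. FPKM values were read from the deposited tables as log2(FPKM + 0.1), which understates changes of low genes, and genes with a mean FPKM over 1 (11429) were fitted with limma 3.58.1 (trended variance) on the 3 groups with the replicate number as a term. The study's methods name no RNA-seq test. P-values were adjusted by Benjamini-Hochberg over all genes. The interaction model had 3 residual degrees of freedom, and replicate 1 is then 1 library a group.

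The deposited estimated counts (42.6% of values not whole) were rounded and used in edgeR 4.0.16 and DESeq2 1.42.0 as alternatives. The count column of SiREV1#2 replicate 3 repeats that of replicate 2, so these fits had 8 libraries, while the FPKM columns differ. Scripts were tested on simulated data. The numbers were taken to pair the libraries because every same-numbered pair correlated over 0.1, which the split of replicate 1 alone can give. For numbers 2 and 3 the pairing is not shown, since their differences correlated at 0.13, -0.16 and -0.12 between groups. The genes, lists and tests were chosen with earlier results of these data known. Full statistics were given to the listed genes that passed (at most 12 a comparison), TFEB, TFE3 and the gene with the largest difference in each role, and from each further list the 2 genes with the smallest p in each siRNA comparison were named. Shared transcript sequence and overlapping exons were read from GENCODE v29. Besides REV1, CTSA, TPP1, ATG3, ATG7 and ATG12, other genes described here have exons that overlap another gene on the opposite strand. Among lysosomal genes they are CTSD, GLB1, HEXA, NPC1, NPC2, LIPA and ASAH1. Among autophagy factors they are MAP1LC3B, GABARAP, GABARAPL1, BECN1, ATG4B, ATG13, WIPI1, OPTN, NBR1, UVRAG and TAX1BP1. The same limit on the use of strand holds for them.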

Additional observations from a re-analysis of the deposited data

Results flagged for a closer look

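The SiREV1#1 difference in replicate 1 was tested against that in replicates 2 and 3, and these genes passed (limma, adjusted p under 0.05, log2 scale, negative where the difference was lower in replicate 1). Among lysosomal genes the values were -0.47 for LAMP1, -0.70 for LAMP2, -0.86 for GLA, -0.42 for HEXA, -0.73 for NPC1, -0.74 for PSAP, -0.64 for SCARB2, -0.82 for LIPA, -0.93 for ASAH1 and 0.91 for TPP1. Among autophagy factors they were -0.98 for GABARAPL2, -0.43 for ULK2, -0.49 for ATG5, -0.46 for ATG16L1, -0.99 for WIPI2, -0.72 for OPTN, -0.51 for UVRAG, -0.55 for TAX1BP1 and 0.66 for GABARAP.

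The same test for SiREV1#2 passed for CTSD (0.32) and MCOLN1 (0.67) and for ATG14 (-0.73), WIPI2 (-0.71), NBR1 (-0.50) and RB1CC1 (-0.64). Each value rests on 1 silenced and 1 scramble library of replicate 1 and on a spread taken from replicates 2 and 3 alone, so that passing does not show a difference between the replicates, and 46.3% and 21.3% of all genes passed the tests for SiREV1#1 and SiREV1#2. WIPI2 passed in both, which share the scramble libraries.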

How the results depend on the processing

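The counts of called genes depended on the replicate number and on which replicates entered. After SiREV1#1 the share of all genes that passed went from 1.49% without the replicate number to 54.5% with replicates 2 and 3 only. Most settings below have no share of all genes beside them, so their counts cannot be read as particular to these genes. Lysosomal and autophagy counts without a replicate block were 1 and 0 for SiREV1#1, 0 and 0 for SiREV1#2, and 1 and 2 between the siRNAs, and edgeR without the block gave 1 and 0, 0 and 0, and 1 and 0. With a replicate block of 2 levels (replicate 1; replicates 2 and 3), SiREV1#1 gave 10 lysosomal calls and SiREV1#2 gave 2 lysosomal and 6 autophagy calls. Replicates 2 and 3 alone gave 17 and 14 for SiREV1#1, 10 and 14 for SiREV1#2, and 17 and 20 between the siRNAs. Centring on the median gave 10 lysosomal calls for SiREV1#1. At an adjusted p under 0.01 there were 3 autophagy calls for SiREV1#1, 1 for SiREV1#2, 4 lysosomal calls between the siRNAs, and 0 lysosomal and 2 autophagy calls for the SiREV1#2 interaction, which without a filter gave 1 and 1. With the replicate block, edgeR gave 0 autophagy calls for SiREV1#2 and 4 lysosomal calls between the siRNAs, with and without a filter. For the SiREV1#1 interaction edgeR gave 5 autophagy calls, without a filter 5 lysosomal and 3 autophagy calls, and DESeq2 gave 4 autophagy calls. For the SiREV1#2 interaction edgeR without a filter gave 0 and 0 and DESeq2 1 and 1, with no adjusted p for 2 lysosomal and 6 autophagy genes.

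With each library left out in turn, lysosomal and autophagy calls ranged from 3 to 15 and from 2 to 9 for SiREV1#1, from 0 to 8 and from 0 to 10 for SiREV1#2, from 4 to 12 and from 8 to 15 between the siRNAs, from 10 to 17 and from 16 to 20 for replicate 1, from 10 to 11 and from 8 to 10 for the SiREV1#1 interaction, and from 1 to 4 and from 2 to 6 for the SiREV1#2 interaction. REV1 after SiREV1#2 was at -1.33 with edgeR without the block and did not pass (adjusted p = 0.154). TFEB after SiREV1#1, not called, was between -0.0409 (without SiREV1#1 replicate 3) and 0.21 (without SiREV1#1 replicate 1), and at -0.0002388 without scramble replicate 1. TFE3, not called, was at 0.0527 (centred), 0.00744 (edgeR), 0.0006274 (edgeR without a filter) and 0.0153 (DESeq2) after SiREV1#1, and at -0.10 after SiREV1#2 with edgeR without the block. The cause was not tested. Of the values of single genes under these settings, 1487 kept their direction and their side of the threshold, 253 no longer passed, 15 newly passed and 7 changed direction.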
